A study of Mus musculus with 24 samples.

Results

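The colony-stimulating factor and interleukin-6 genes described here are 9 of the 13290 genes listed in the deposited count tables, and all 9 of the named genes were found by symbol. They are the ligands Csf1, Csf3 and Il6, and the receptor chains Csf1r, Csf2ra, Csf2rb, Csf3r, Il6st and Osmr. They were read in BV2, an immortalised mouse microglial line, and in the extracellular vesicles (EVs) that these cells release. LPS was followed by Csf3 and Il6 counts in cells where the controls had none, by more Csf1r and by less Csf1, Csf2rb and Il6st. IL-10 moved Csf1 and Il6st up and Csf1r down, and TGF-β moved Csf1, Csf2rb and Il6st down and Csf1r and Csf3r up.

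Csf1 encodes macrophage colony-stimulating factor, whose receptor, the tyrosine kinase Csf1r, keeps microglia and other macrophages alive. Csf3 encodes granulocyte colony-stimulating factor, which binds Csf3r. Csf2ra is the ligand-binding chain for GM-CSF and Csf2rb the β chain it shares with the receptors for interleukin-3 and interleukin-5, while Il6st encodes gp130, the signalling chain shared by interleukin-6, oncostatin M and related cytokines, with Osmr as its partner for oncostatin M. Csf2, which encodes GM-CSF itself, was not analysed here.

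The study treated BV2 cells for 72 hours with 1 of 3 agents, beside untreated controls: 100 ng/mL LPS (a bacterial cell wall component), 50 ng/mL IL-10, or 50 ng/mL TGFB (TGF-β), and total RNA of cells and of EVs was sequenced. The labels name no other treatment, allele or animal, and BV2 is 1 line, so all groups share its genome. There were 24 libraries in 8 groups of 3, numbered here as in the names of the count columns. The labels do not say that libraries of different groups with the same number belong together. The labels do not say whether the 3 libraries of a group came from separate cultures, and p-values then refer only to variation among libraries, which could be technical.

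Cell libraries held 26136825 to 42125153 counts and EV libraries 3019338 to 17978753. Levels are CPM, counts relative to library size, scaled by TMM over the 12 libraries of a compartment ("scaled CPM"). A floor of 3 counts corresponded to 0.0647 to 0.115 scaled CPM in a cell library and 0.144 to 0.744 in an EV library, which covers counting error only. The 13 listed markers of microglia and macrophages, of 15 chosen, summed to 4810 to 6520 scaled CPM in cells, but Cx3cr1, a defining microglial receptor, averaged 0.0801 in control, 0.0111 in LPS, 0 in IL-10 and 7.94 in TGF-β cells, and P2ry12 and Sall1 were not analysed here. The listed markers of neurons, fibroblasts, endothelium, oligodendrocytes, lymphocytes, astrocytes and neutrophils summed to at most 15.7 scaled CPM for any single cell type and to 12.2 to 30 for all these types together in a cell library, and no epithelial marker was analysed here. Being bulk RNA, the levels cannot tell apart fewer cells of a kind and less RNA per cell. All 3 treatments of a compartment share the same 3 control libraries.

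The windows from 250 bases before to 50 bases after the start site were available from RefSeq (GRCm38.p6) for Csf1, Csf2ra, Csf3r, Il6, Osmr and Il6st. Those of Il6, read in cells only with LPS, and of Csf1 and Il6st, which changed in the same direction as each other under each treatment, are shown 5′ to 3′ along the gene, at chr5:30012864-30013163 (plus strand), chr3:107760420-107760719 (minus strand) and chr13:112463820-112464119 (plus strand), with motif matches in capitals.
Il6: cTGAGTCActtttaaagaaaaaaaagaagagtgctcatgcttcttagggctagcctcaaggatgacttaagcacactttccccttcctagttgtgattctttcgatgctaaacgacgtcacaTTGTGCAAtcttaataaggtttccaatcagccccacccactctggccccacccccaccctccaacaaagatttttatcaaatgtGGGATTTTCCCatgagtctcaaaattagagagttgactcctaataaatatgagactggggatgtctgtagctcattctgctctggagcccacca
Csf1: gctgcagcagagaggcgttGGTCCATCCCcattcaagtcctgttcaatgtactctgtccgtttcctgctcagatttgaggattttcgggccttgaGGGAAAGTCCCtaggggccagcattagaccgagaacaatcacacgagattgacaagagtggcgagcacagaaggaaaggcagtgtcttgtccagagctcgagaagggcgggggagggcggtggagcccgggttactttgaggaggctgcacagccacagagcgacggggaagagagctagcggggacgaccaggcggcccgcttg
Il6st: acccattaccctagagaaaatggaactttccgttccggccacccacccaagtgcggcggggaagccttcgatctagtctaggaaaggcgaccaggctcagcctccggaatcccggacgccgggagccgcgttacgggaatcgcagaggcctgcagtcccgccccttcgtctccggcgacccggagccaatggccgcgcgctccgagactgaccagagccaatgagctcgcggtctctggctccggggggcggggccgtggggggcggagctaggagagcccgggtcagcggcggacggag
The letters searched on both strands were GGGA, any 4 bases and CC for NF-kB, with GGGA, any base and TTTCC as its strict form and a subset of it, TTGCNNAA for C/EBP, TGANTCA for AP-1, TTCNNNGAA for STAT, GAGGAA for PU.1, TTTC, any 2 bases and TTTC for an interferon response core and TATAAA for a TATA box.

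The Il6 window held GGGATTTTCC, a strict NF-kB match, at bases -44 to -35 from the start site, with a second match of the looser letters on the other strand 1 base on. It also held a C/EBP match, TTGTGCAA, at -128 to -121 and an AP-1 match, TGAGTCA, at -249 to -243. The Csf1 window held a strict NF-kB match on the minus strand, GGAAAGTCCC, at -154 to -145, overlapping a looser match on the plus strand, and a looser match, GGTCCATCCC, at -231 to -222. None of the letters searched was in the Il6st window. Of the windows not shown, Csf3r held a looser NF-kB match at -129 to -120 and a PU.1 match at -86 to -81. Osmr held a looser NF-kB match at -231 to -222, a PU.1 match at -240 to -235 and an AP-1 match at 4 to 10. Csf2ra held PU.1 matches at -14 to -9 and at -8 to -3. Of 32851 windows of this length, 20.7% held the NF-kB letters, 0.4% the strict form, 10.8% the C/EBP, 7.8% the AP-1, 8.3% the STAT, 28.3% the PU.1, 3.4% the interferon response and 13.6% the TATA letters. These matches describe letters in a window and no binding was measured.

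In control cells the levels spanned a wide range when divided by exon length. Csf1 stood at 150 ± 10.5 and Csf1r at 142 ± 4.71 scaled CPM per kb (SD, n = 3), so the ligand and its receptor lay at a similar level. Csf2rb followed at 83.4 ± 0.892 and Csf2ra at 23.4 ± 0.654, the β chain above the chain that binds GM-CSF. Il6st stood at 12.5 ± 1.40 and Csf3r at 4.23 ± 0.0955 scaled CPM per kb. Csf3 and Il6 had no count in any control cell library, and Osmr had 2, 0 and 3 counts.

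LPS changed 6 of the 8 members tested in cells, 3 upward and 3 downward, by edgeR's quasi-likelihood test at an adjusted p of 0.05. Of all 11951 genes tested, 56.1% were called in that comparison, 28.6% higher and 27.5% lower, so the members' share of calls lay near the background. Csf3 and Il6, with no count in controls, entered this test through their LPS counts alone and could only come out higher. IL-10 changed 4 of 6, 3 upward and 1 downward, against 23.2% of all 11790 genes tested, 12.3% higher and 10.9% lower. TGF-β changed 5 of 6, 2 upward and 3 downward, against 29.9% of all 11798 genes tested, 14.5% higher and 15.4% lower. Of the members tested, 7 with LPS, 4 with IL-10 and 6 with TGF-β had no overlap with the controls, beside 62.2%, 37.9% and 45% of all genes. In the direct contrasts of treated cells, 53.3% of all genes tested were called between LPS and IL-10, 57.1% between LPS and TGF-β and 38.3% between TGF-β and IL-10. Csf3, Il6 and Osmr were not tested with IL-10 or TGF-β, and Osmr not with LPS, because their counts were too low in the libraries compared.

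**Figure D1:**
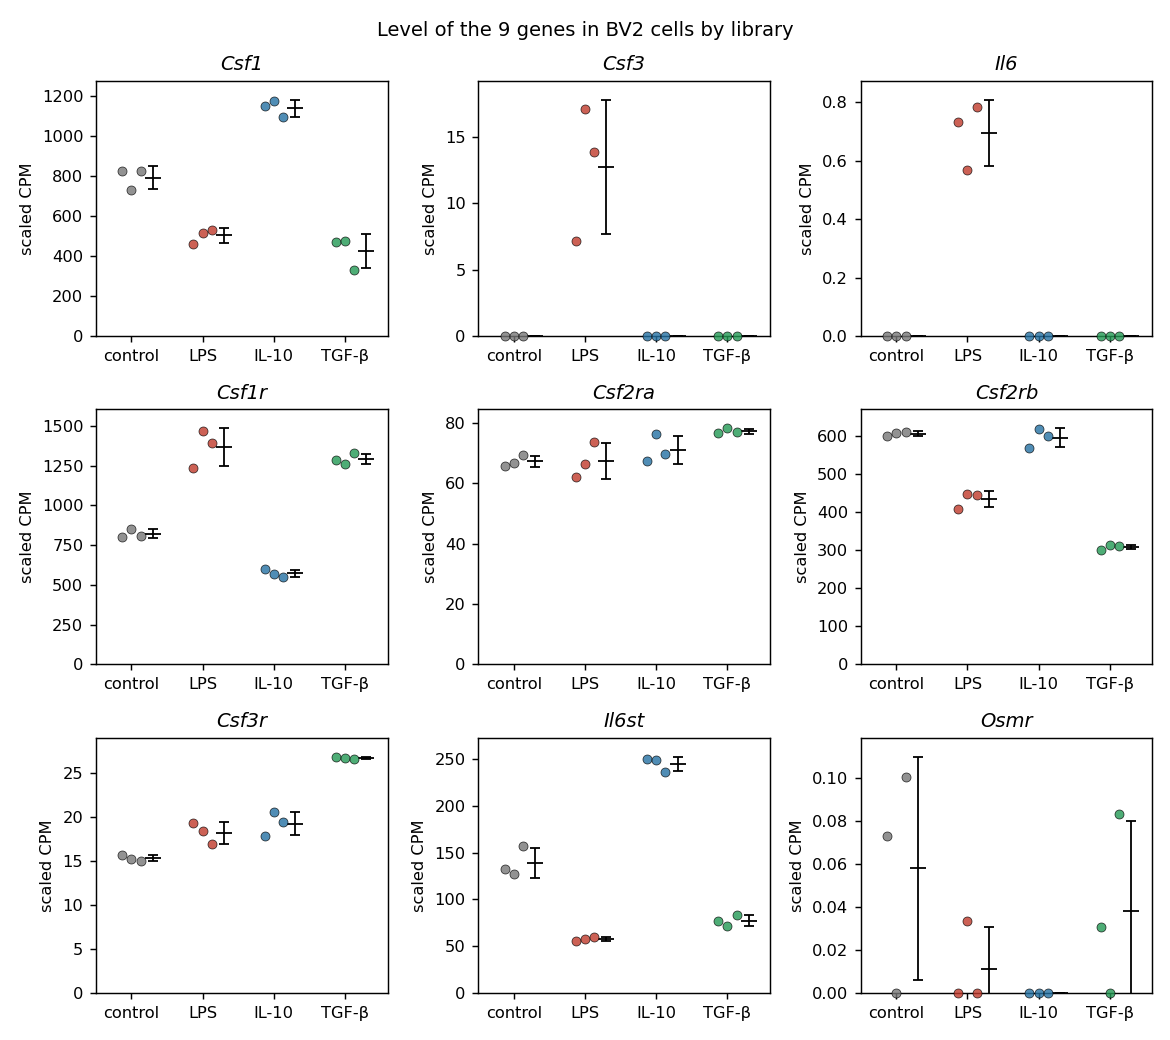
Level of each of the 9 genes in scaled CPM (y axis, starting at 0, a scale of its own per gene) in control, LPS, IL-10 and TGF-β cells, with 1 point per library and the mean ± SD of 3 libraries beside the points. Csf3 and Il6 have points above 0 only with LPS, and all Osmr points lie at or below the level of 3 counts.

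Csf1, the macrophage growth factor, was the most abundant of the ligands in every cell group. It stood at 825, 728 and 824 scaled CPM in the 3 control libraries. With LPS it stood at 460.4, 516 and 531, with TGF-β at 470.3, 476 and 329, and with IL-10 at 1151, 1174 and 1093. Every LPS and TGF-β library lay below every control and every IL-10 library above. Csf1 fell by 0.66 on the log2 scale with LPS (SE 0.07, edgeR adjusted p = 1.33e-07) and by 0.90 with TGF-β (SE 0.14, adjusted p = 0.0022), and rose by 0.52 with IL-10 (SE 0.06, adjusted p = 2.15e-06). LPS and TGF-β libraries overlapped, and their direct contrast did not pass (log2 difference 0.24, SE 0.11, edgeR adjusted p = 0.078), although it did without TGF-β library 1 (adjusted p = 0.0351) or 2 (adjusted p = 0.0275).

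Csf3, the granulocyte growth factor, had 332, 512 and 477 counts in the LPS cell libraries, or 7.16, 17.1 and 13.9 scaled CPM. It had no count in the other 9 cell libraries. Against a floor of 3 counts per library in the controls, the LPS mean of 12.7 ± 5.07 was at least 126-fold higher (edgeR adjusted p = 3.54e-07). Per exon length it stood at 8.99 ± 3.59 scaled CPM per kb with LPS.

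Il6, the founding cytokine of the gp130 family, was far lower. It had 34, 17 and 27 counts in the LPS cell libraries, or 0.733, 0.568 and 0.785 scaled CPM, and none in the other 9. The rise was at least 6.88-fold against the same floor (edgeR adjusted p = 4.19e-05). At 0.286 ± 0.0468 scaled CPM per kb, Il6 remained the lowest of the ligands in LPS cells.

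Csf1r, the receptor for Csf1, moved opposite to its ligand under all 3 treatments. It stood at 802, 853 and 811 scaled CPM in control cells, at 1236, 1468 and 1393 with LPS, at 1285, 1263 and 1329 with TGF-β, and at 597, 571 and 548 with IL-10. No treated library overlapped the controls. The log2 change was 0.73 with LPS (SE 0.07, edgeR adjusted p = 2.34e-08), 0.65 with TGF-β (SE 0.06, adjusted p = 3.72e-06) and -0.52 with IL-10 (SE 0.05, adjusted p = 8.44e-07). LPS and TGF-β did not differ beyond the spread (log2 difference 0.08, SE 0.07, adjusted p = 0.344).

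The balance of ligand to receptor RNA differed between groups in step with these changes. The ratio of Csf1 to Csf1r, each per kb, was 1.12, 0.934 and 1.11 in control cells. It was 2.11, 2.25 and 2.18 with IL-10, 0.407, 0.385 and 0.417 with LPS, and 0.400, 0.412 and 0.271 with TGF-β. The IL-10 libraries all lay above the controls and the LPS and TGF-β libraries all below. This ratio was chosen after its values were seen and has no test of its own.

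**Figure D2:**
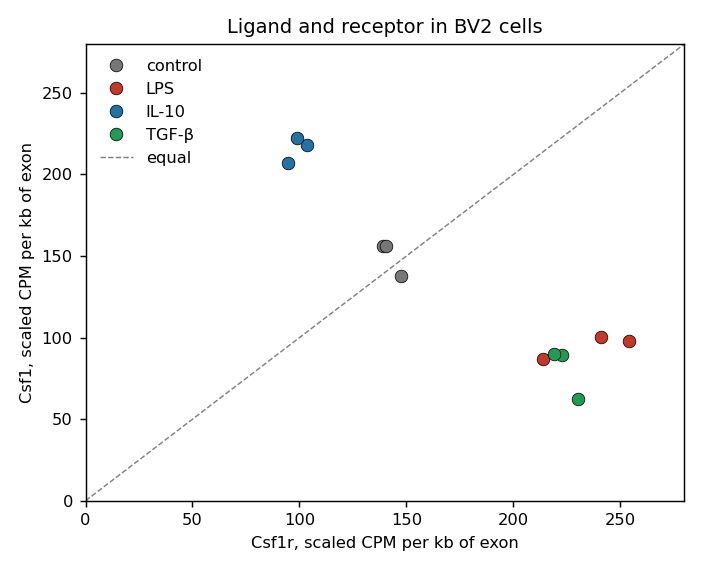
Csf1 (y axis) against Csf1r (x axis) in the 12 cell libraries, both in scaled CPM per kb of exon, with 1 point per library and a dashed line where they are equal. Control libraries lie by the line, IL-10 libraries above it with ratios of 2.11 to 2.25, and LPS and TGF-β libraries below it.

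**Figure D3:**
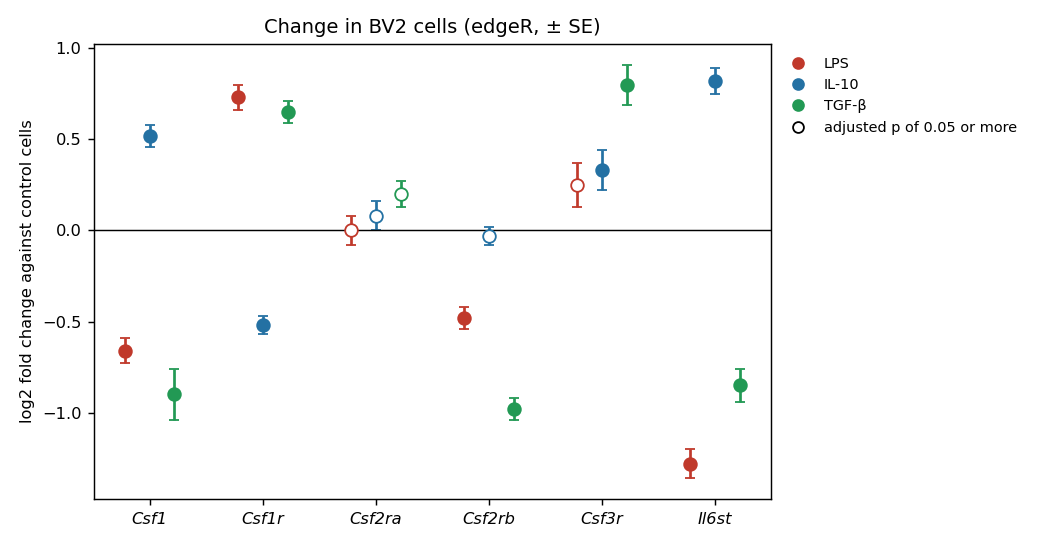
Log2 fold change against control cells (y axis) for the 6 genes tested under all 3 treatments, with points for edgeR estimates, bars for ± SE and open points for an adjusted p of 0.05 or more. Csf1 and Csf1r lie on opposite sides of 0 under each treatment, and Il6st lies on the same side as Csf1.

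Il6st, the gp130 signalling chain, showed the widest range among the receptors tested in cells. It stood at 132, 128 and 157 scaled CPM in controls, 55.3, 57.3 and 59.4 with LPS, 77.2, 71.6 and 83.0 with TGF-β, and 249.5, 248 and 236 with IL-10. The 4 groups did not overlap. Il6st fell by 1.28 on the log2 scale with LPS (SE 0.08, edgeR adjusted p = 8.85e-11) and by 0.85 with TGF-β (SE 0.09, adjusted p = 1.08e-05), and rose by 0.82 with IL-10 (SE 0.07, adjusted p = 1.37e-07). The levels with LPS and IL-10 differed 4.27-fold (adjusted p = 1.31e-13), and those with LPS were also below those with TGF-β (log2 difference -0.43, SE 0.08, adjusted p = 0.000158).

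Csf2rb, the shared β chain, was at 600.0, 608 and 613 scaled CPM in controls. It was at 410.1, 449 and 447 with LPS and at 302, 313 and 311 with TGF-β, below every control library. It fell by 0.48 on the log2 scale with LPS (SE 0.06, edgeR adjusted p = 1.56e-06) and by 0.98 with TGF-β (SE 0.06, adjusted p = 5.98e-08). The 2 treatments differed from each other by 0.50 (SE 0.06, adjusted p = 1.18e-06). With IL-10 its 570.1, 619 and 600 overlapped the controls (log2 difference -0.03, SE 0.05, adjusted p = 0.77). Csf2rb2, a near-identical copy, may share reads with Csf2rb, so the split of counts between them is uncertain; Csf2rb2 fell by 1.29 with LPS (adjusted p = 8.61e-11), by 1.12 with TGF-β (adjusted p = 3.17e-07) and by 0.19 with IL-10 (adjusted p = 0.0325).

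Csf2ra, the chain that binds GM-CSF, varied little in cells. It stood at 65.8, 66.6 and 69.4 scaled CPM in controls, 62.1, 66.4 and 73.9 with LPS, 67.5, 76.3 and 69.6 with IL-10, and 76.7, 78.2 and 77.0 with TGF-β. None of its 3 comparisons with controls passed. The log2 difference was 0.00 with LPS (SE 0.08, edgeR adjusted p = 0.986), 0.08 with IL-10 (SE 0.08, adjusted p = 0.497) and 0.20 with TGF-β (SE 0.07, adjusted p = 0.0577), where the groups did not overlap. LPS was below TGF-β (log2 difference -0.20, SE 0.08, adjusted p = 0.0417), a call lost under 9 of its 17 alternatives (adjusted p from 0.0511 to 0.162). These were a fit of those 6 libraries alone and fits without each control library, LPS library 1 or 2, or each TGF-β library.

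Csf3r, the receptor for granulocyte colony-stimulating factor, was low. It stood at 15.7, 15.2 and 15.0 scaled CPM in controls and at 26.8, 26.7 and 26.6 with TGF-β, above every library of the other groups. With LPS it stood at 19.3, 18.4 and 16.9, and with IL-10 at 17.8, 20.5 and 19.3. Csf3r rose by 0.80 on the log2 scale with TGF-β (SE 0.11, edgeR adjusted p = 8.05e-05). With IL-10 it rose by 0.33 (SE 0.11, adjusted p = 0.044), a call lost without each of 5 of the 6 libraries (adjusted p up to 0.14) and on library totals without TMM factors (adjusted p = 0.263). With LPS the log2 difference of 0.25 did not pass with TMM factors (SE 0.12, adjusted p = 0.0776) and passed on library totals (0.32, adjusted p = 0.0308).

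Osmr, the oncostatin M chain, was at or under the floor of 3 counts in every cell library. It had 2, 0 and 3 counts in controls, 0, 1 and 0 with LPS, 1, 0 and 3 with TGF-β, and none with IL-10. No change in cells was detectable at this depth. Library totals moved the median of all genes by -0.16 (log2) in IL-10 cells, and there Csf2rb became -0.18 (edgeR adjusted p = 0.0108) and Csf2ra -0.08 (adjusted p = 0.461).

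Other genes of these pathways were taken from 7 lists chosen with earlier results of these data known. Their counts stand beside the shares of all genes tested, which were 28.6% higher and 27.5% lower with LPS, 12.3% and 10.9% with IL-10, and 14.5% and 15.4% with TGF-β. Of the other ligands, 3 of the 4 tested rose with LPS and 1 fell, with a median log2 change of 4.35 beside 0.01 over all genes tested. Ebi3, a subunit of interleukin-27, went from 1.16 ± 0.293 to 36.3 ± 1.55 scaled CPM (31.2-fold, edgeR adjusted p = 6.6e-15), and Il27, which encodes its partner p28, from 0.0997 ± 0.0864 to 3.27 ± 0.728 (adjusted p = 1.37e-07). Il34, the other ligand of Csf1r, rose from 0.127 ± 0.0824 to 1.70 ± 0.200 scaled CPM (adjusted p = 7.54e-06). Il27, with 4, 5 and 0 counts in controls, and Il34, with 6, 2 and 3, entered this test through their LPS counts alone. Both could only come out higher, and the median of the list rests in part on them. Osm, which encodes oncostatin M, fell from 18.1 ± 0.909 to 9.88 ± 0.419 (adjusted p = 8.48e-06), and with IL-10 to 10.9 ± 0.852 (adjusted p = 0.000238).

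Of the other receptor chains, 4 were tested in cells, and 2 fell with LPS and none rose. Il6ra, which binds interleukin-6 before gp130 joins, fell from 29.4 ± 0.341 scaled CPM to 11.1 ± 2.35 with LPS (edgeR adjusted p = 7.28e-08) and to 17.4 ± 1.95 with IL-10 (adjusted p = 5e-05). With TGF-β it rose to 47.2 ± 2.85 (adjusted p = 0.000105). Il6ra and Il6st moved in opposite directions with TGF-β and with IL-10, and both fell with LPS. Il3ra, the interleukin-3 chain that pairs with Csf2rb, rose from 7.68 ± 1.93 to 11.4 ± 2.19 with IL-10 (adjusted p = 0.04). With IL-10 the list counted 1 higher and 2 lower, and with TGF-β 1 higher and 1 lower.

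Of the feedback inhibitors and turnover genes, 6 of 13 rose and 1 fell with LPS, beside 28.6% and 27.5% of all genes tested. With IL-10 5 of 12 rose and none fell, beside 12.3% and 10.9%, and with TGF-β 6 of 13 rose and none fell, beside 14.5% and 15.4%. The median changes were 0.37, 0.27 and 0.29 on the log2 scale beside 0.01, 0 and 0.01 over all genes tested. Socs3, which blocks signalling at gp130 and at Csf3r, went from 24.3 ± 3.24 to 237 ± 13.1 scaled CPM with IL-10 (edgeR adjusted p = 1.41e-14), to 52.8 ± 5.64 with LPS (adjusted p = 6.06e-08) and to 50.7 ± 6.29 with TGF-β (adjusted p = 2.63e-05). Socs1, an inhibitor of Janus kinases, rose with LPS from 0.197 ± 0.148 to 7.30 ± 0.622 (adjusted p = 2.23e-10). With 10, 3 and 4 counts in controls, Socs1 entered this test through its LPS counts and could hardly come out lower. Ptpn1, a phosphatase acting on Janus kinases, rose with LPS to 324 ± 6.69 (adjusted p = 2.8e-11) and with IL-10 to 263 ± 3.65 (adjusted p = 7.46e-09) from 145 ± 8.76, and Adam10, a sheddase, rose with TGF-β from 56.3 ± 4.83 to 101 ± 17.7 (adjusted p = 0.000194).

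Among 23 JAK, STAT and adaptor genes, LPS gave 8 rises and 9 falls, IL-10 gave 5 and 3, and TGF-β gave 9 and 7, with medians of -0.18, -0.07 and 0.12. Stat3, the main transducer below gp130, rose with IL-10 from 216 ± 12.4 to 373 ± 10.6 scaled CPM (edgeR adjusted p = 1.3e-08), and Jak3 from 39.9 ± 3.23 to 111 ± 4.33 (adjusted p = 1.15e-10). Tyrobp, an adaptor of Csf1r and Trem2 signalling, fell with LPS from 1300 ± 69.2 to 733 ± 36.5 (adjusted p = 2.44e-09). Inpp5d, a lipid phosphatase, rose with TGF-β from 327 ± 11.0 to 623 ± 21.1 (adjusted p = 1.55e-07).

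Of the STAT3 and STAT5 target genes, 9 of 17 rose and 5 fell with LPS, 9 of 15 rose and 2 fell with IL-10, and 4 of 15 rose and 6 fell with TGF-β, with medians of 0.24, 0.41 and -0.37. Il4ra, the interleukin-4 receptor chain, rose with IL-10 from 40.3 ± 5.91 to 153 ± 8.67 scaled CPM (edgeR adjusted p = 3.15e-11) and with TGF-β to 126 ± 4.47 (adjusted p = 5.32e-08). Bcl3, a nuclear partner of NF-kB, rose with IL-10 from 3.64 ± 0.672 to 28.7 ± 1.95 (adjusted p = 3.56e-11). Icam1, an adhesion molecule, rose with LPS from 74.2 ± 1.72 to 177 ± 10.8 (adjusted p = 1.58e-11), and Myc fell with TGF-β from 15.2 ± 1.76 to 4.00 ± 0.389 (adjusted p = 1.73e-06).

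Among 21 regulators of Il6 and Csf3 transcription and mRNA stability, 11 rose and 7 fell with LPS, 9 and 4 with IL-10, and 5 and 8 with TGF-β, with medians of 0.33, 0.29 and -0.16. Nfkbiz, whose product acts on secondary NF-kB targets such as Il6, rose with LPS from 3.14 ± 0.77 to 78.6 ± 3.64 scaled CPM (edgeR adjusted p = 3e-15). Zc3h12a, whose product degrades Il6 mRNA, rose with LPS from 3.36 ± 0.618 to 37.7 ± 5.42 (adjusted p = 5.33e-13). Zfp36, which destabilises AU-rich cytokine mRNAs, rose with IL-10 from 18.6 ± 1.23 to 47.7 ± 0.925 (adjusted p = 6.88e-09). Jun, an AP-1 subunit, fell from 313 ± 20.5 to 96.9 ± 9.11 with LPS (adjusted p = 5.28e-13) and to 151 ± 4.68 with TGF-β (adjusted p = 1.23e-07).

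The 12 regulators of Csf1r transcription counted 2 rises and 6 falls with LPS, 3 and 0 with IL-10, and 4 and 3 with TGF-β, with medians of -0.41, 0 and 0.13. Ets2 rose with LPS from 30.6 ± 4.41 to 140.0 ± 11.1 scaled CPM (edgeR adjusted p = 8.43e-13), and Cebpa with TGF-β from 11.1 ± 0.978 to 43.0 ± 8.62 (adjusted p = 8.3e-07). Spi1, which encodes PU.1, fell with TGF-β from 384 ± 5.43 to 292 ± 12.7 (adjusted p = 0.000303). Csf1r itself rose with LPS and TGF-β and fell with IL-10.

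The genes whose pattern over the 12 cell libraries was most like a member's were taken by Pearson's r of log2(scaled CPM + 1) among 10397 genes. These values are descriptions, since the 12 libraries fall into 4 treated groups that all genes share. Nearest to Csf1 were Ell (0.987), Hist1h1c (0.970) and Ogdh (0.969), and nearest to Csf1r were Pgp (0.990), Lpcat2 (0.987) and Slc24a5 (0.984). Csf3 lay nearest to Adamts7 (0.998), Gpr18 (0.998) and the chemokine gene Cxcl2 (0.997). Csf2rb lay nearest to Hk3 (0.995), Xdh (0.993) and Mindy1 (0.990), Il6st to Mettl7a1 (0.993), Tmem106a (0.989) and Ddah1 (0.983), Csf3r to Gcnt2 (0.970), Hif1a (0.962) and Fam3c (0.955), and the steadier Csf2ra to Cox7a1 (0.925), Pecr (0.883) and Efhd2 (0.877).

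In EVs the LPS libraries stood apart from the others in how many genes they detected. Of the genes with no count in the 3 LPS cell libraries, 395 of 401 (98.5%) had counts in all 3 LPS EV libraries, at a median of 18.3 scaled CPM and a 90th percentile of 27.3. The same share was 4.9% in control EVs, 5.7% with IL-10 and 6.7% with TGF-β. All 18 listed markers of cell types other than microglia, of 48 chosen, were read in LPS EVs, summing to 140 to 507 scaled CPM per library, whereas 9 were read in control EVs (12.1 to 118), 12 with IL-10 (11.7 to 50) and 7 with TGF-β (11.3 to 57.3). In LPS cells 13 of the 18 were read, summing to 19.3 to 30 scaled CPM. The part of these differences in the results on LPS EVs was not tested.

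LPS EVs held Csf3, Il6 and Osmr, and control EVs held none of them. These 3 of the 9 members tested were higher in LPS than in control EVs and none was lower, beside 14.2% of all 12216 genes tested, 13.9% higher and 0.237% lower. With no count in control EVs, these 3 entered the test through their LPS counts alone and could only come out higher. Csf3 stood at 56.4, 48.5 and 32.7 scaled CPM in LPS EVs (261, 200 and 250 counts), at least 122-fold above the control floor of 3 counts per library (edgeR adjusted p = 0.025). Il6 stood at 4.11, 18.9 and 7.44 (19, 78 and 57 counts), at least 27.0-fold above it (adjusted p = 0.025), and 2 of its 3 libraries lay below the median of 18.3 among the genes silent in LPS cells. Osmr stood at 8.43, 70.6 and 35.1 (39, 291 and 269 counts), at least 101-fold above it (adjusted p = 0.025). All 3 calls were lost without each single LPS EV library (adjusted p from 0.0713 to 0.114) and with all 12 EV libraries in the fit (0.0798 to 0.108), settings in which none of all genes tested was called.

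Outside LPS these genes appeared in single EV libraries. Csf3 had 188 counts (20.2 scaled CPM) in 1 IL-10 library and 35 counts (3.92) in 1 TGF-β library, though no IL-10 or TGF-β cell library had any. Il6 had 11 counts (1.23 scaled CPM) in that same TGF-β library and none in the other 8 EV libraries outside LPS. Osmr had none in the 9 EV libraries outside LPS, which allows up to 3 counts in each.

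**Figure D4:**
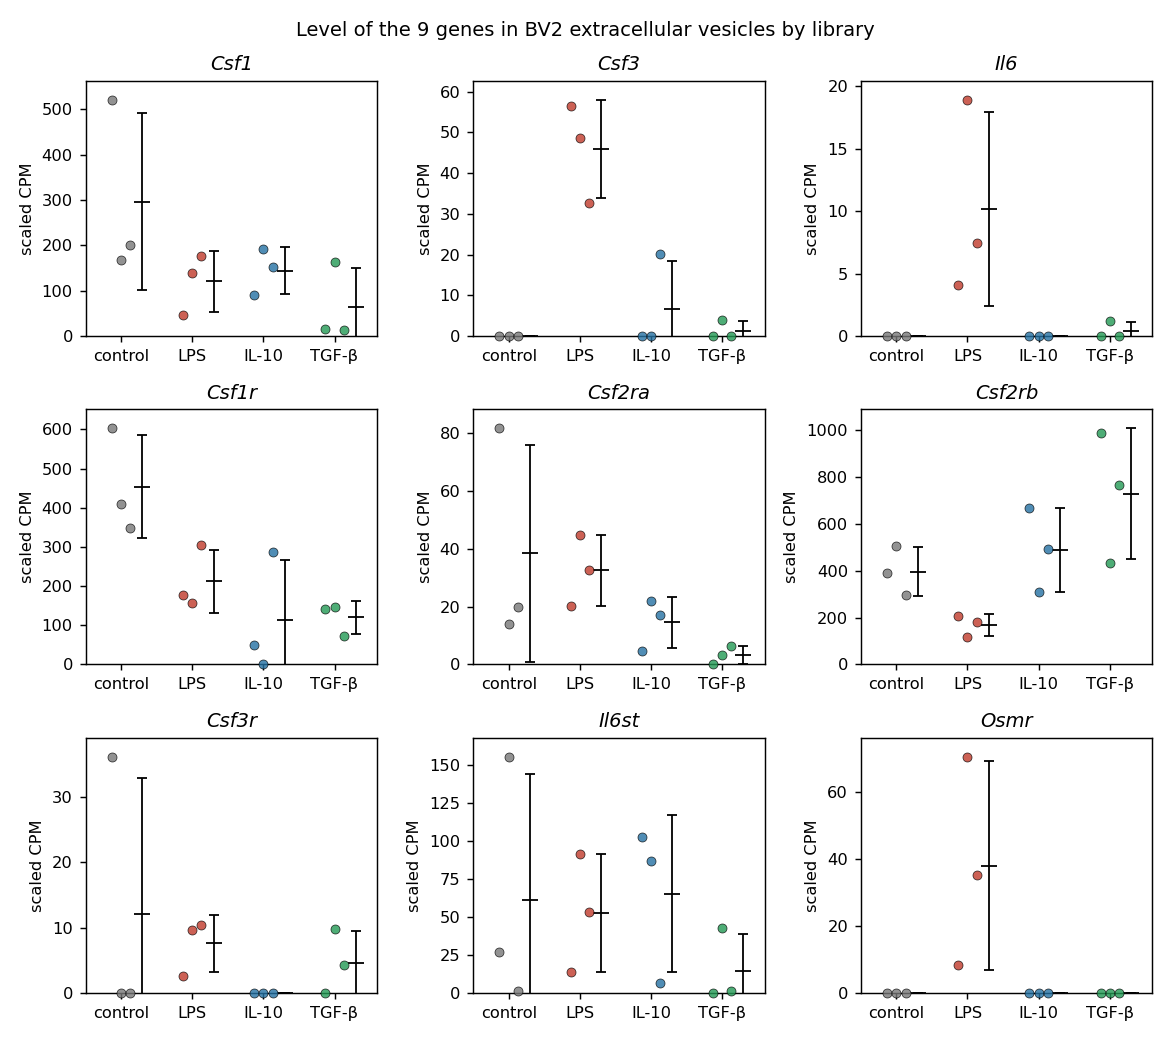
Level of each of the 9 genes in scaled CPM (y axis, starting at 0, a scale of its own per gene) in EVs of control, LPS, IL-10 and TGF-β cells, with 1 point per library and the mean ± SD of 3 libraries beside the points. Csf3, Il6 and Osmr are highest with LPS, and the spread within groups is wide for most genes, Il6 and Osmr with LPS included.

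The receptors and Csf1 varied more between EV libraries of a group than between cell libraries. Csf1 stood at 521, 167 and 199.99 scaled CPM in control EVs, 45.8, 139 and 176 with LPS, 89.97, 192 and 151 with IL-10, and 15.9, 162 and 13.0 with TGF-β. Csf1r stood at 603, 411 and 349 in control EVs, 177, 156 and 305 with LPS, 141, 148 and 71.9 with TGF-β, and 50.7, 0.238 and 287 with IL-10. Every treated EV library lay below every control for Csf1r, but the log2 differences of -1.07 with LPS (SE 0.46, edgeR adjusted p = 0.238), -1.94 with TGF-β (SE 0.47, adjusted p = 0.999) and -2.04 with IL-10 (SE 1.56, adjusted p = 1) did not pass. Groups without overlap made up 32% of all genes tested with LPS, 16.7% with TGF-β and 9.99% with IL-10.

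Csf2rb, the shared β chain, was the most abundant member in TGF-β EVs. It stood there at 986, 433 and 768 scaled CPM, beside 388, 505 and 295 in control EVs, 667, 308 and 492 with IL-10, and 209, 116 and 183 with LPS. LPS lay below every control, without passing (log2 difference -1.19, SE 0.44, edgeR adjusted p = 0.153), while DESeq2 called it (adjusted p = 0.0164). Il6st, the gp130 chain, ranged from 1.12 to 155 scaled CPM among the 3 control libraries and from 0 to 42.4 with TGF-β. Csf2ra stood at 81.6, 14.0 and 19.8 in control EVs and at 0, 3.25 and 6.22 with TGF-β, below every control (log2 difference -3.64, SE 1.99, adjusted p = 0.999). Csf3r was read in 1 control EV library alone (36.1 scaled CPM), in all 3 LPS libraries (2.59, 9.70 and 10.5), in 2 TGF-β libraries and in none with IL-10.

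With IL-10 none of 5 members tested in EVs was called by edgeR, as for all 8992 genes tested (0%). None had an unadjusted p under 0.05, and DESeq2 called 0. With TGF-β none of 6 was called, as for all 9093 genes tested (0%), while 1, Csf1r, had an unadjusted p under 0.05 (0.00401) and was called by DESeq2 (adjusted p = 0.0467). Csf1r was lower than every control library in 3 of 3 TGF-β EV libraries, where 16.7% of all genes tested had no overlap with the controls.

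The change in EVs differed from that in cells for Csf1r. The LPS effect on Csf1r was lower in EVs than in cells, a log2 difference of -1.97 (SE 0.43, edgeR interaction test, adjusted p = 0.00993), with 2 of 9 members called beside 16.1% of all genes tested. The TGF-β effect on it was also lower in EVs, with a difference of -2.66 (SE 0.43, adjusted p = 0.0443), the 1 member called of 6 beside 0.31% of all genes. That call was lost with RLE scaling (adjusted p = 0.0537) and without each of the 6 cell libraries (0.189 to 0.199). Osmr was the other member called with LPS (adjusted p = 0.00604). It entered this test through its LPS EV counts alone and could hardly come out lower. Its fitted difference depends on the prior count, since it had 6 counts over the 6 cell libraries and none in control EVs. The difference could not be estimated for Csf3 and Il6, whose controls were at 0 in both compartments. With IL-10 none of 6 members was called by edgeR beside 0.285% of all genes, with 2 at an unadjusted p under 0.05 and 0 by DESeq2.

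Set beside the cells that released them, EVs are compared by the share of counts a gene took, not by amount. With LPS 7 of 9 members differed, 3 higher and 4 lower in EVs, beside 40.5% of all genes tested, 25.3% higher and 15.2% lower. Csf3 took a 3.39-fold larger share in EVs (log2 1.76, SE 0.41, edgeR adjusted p = 0.0108) and Il6 a 13.3-fold larger one (log2 3.73, SE 0.73, adjusted p = 0.00473), and Osmr was read in all 3 EV libraries against 1 count in the 3 cell libraries (adjusted p = 0.000596). Osmr entered that test through its EV counts alone and could only come out higher in EVs. Genes with no count in LPS cells had a median of 18.3 scaled CPM in LPS EVs, and 98.5% were read in all 3 libraries. Beside that median, the LPS EV means were 45.85 for Csf3, 10.15 for Il6 and 38.04 for Osmr. The part of this background in the 3 larger shares was not tested. Csf1r was lower in EVs (log2 difference -2.76, SE 0.32, adjusted p = 0.000625), as were Csf1 (-2.16, SE 0.45, adjusted p = 0.00626) and Csf2rb (-1.45, SE 0.28, adjusted p = 0.0043). Csf2ra was lower too (-1.15, SE 0.32, adjusted p = 0.021), a call lost without each LPS cell library (0.0626 to 0.0911) and on library totals (0.131).

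In the other groups fewer members differed between EVs and cells. In controls none of 6 was called by edgeR, beside 10.7% of all genes tested (1.23% higher and 9.43% lower), with 2 at an unadjusted p under 0.05 and 0 by DESeq2. Without control EV library 1, Csf1 (-2.14, adjusted p = 0.00343), Csf1r (-1.15, adjusted p = 0.0049), Csf2ra (-2.02, adjusted p = 0.0078) and Csf3r, then at 0 in EVs (adjusted p = 0.00495), were lower in EVs. With IL-10 2 of 6 were lower in EVs, beside 17.7% of all genes (7.49% higher and 10.2% lower): Csf1 (log2 difference -2.93, SE 0.31, edgeR adjusted p = 0.0183), and Csf3r, at 0 in EVs (adjusted p = 0.0184). Both calls were lost without each IL-10 cell library (adjusted p from 0.107 to 0.122). Csf3r entered that test through its cell counts alone and could only come out lower in EVs. With TGF-β 2 of 6 differed, beside 18.4% of all genes (9.42% higher and 8.99% lower): Csf1r was lower in EVs (log2 difference -3.38, SE 0.32, adjusted p = 0.00369) and Csf2rb higher (1.29, SE 0.32, adjusted p = 0.0436). The Csf2rb call was lost under 9 of its 11 alternatives, among them RLE scaling (adjusted p = 0.0801) and each TGF-β cell library left out (0.164 to 0.169).

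The other lists gave few calls in EVs. With LPS 1 of 3 other ligands, 2 of 6 other receptor chains and 2 of 23 JAK, STAT and adaptor genes were higher than in control EVs, and none of the other 4 lists had a call, beside 13.9% of all genes tested higher and 0.237% lower. Lifr, the receptor chain for leukemia inhibitory factor, stood at 24.3 ± 21.8 scaled CPM and Il27ra, the interleukin-27 receptor, at 14.5 ± 10.5 in LPS EVs, with no count in control EVs (edgeR adjusted p = 0.025 each). Both entered the test through their LPS counts alone and could only come out higher. In LPS cells Lifr had 1, 1 and 0 counts and Il27ra 7, 9 and 6. Genes with no count in LPS cells had a median of 18.3 scaled CPM in LPS EVs and a 90th percentile of 27.3. The part of this in the Lifr and Il27ra values was not tested. Like those of the members, these calls were lost without each single LPS EV library. Jak2, the kinase below Csf3r and Csf2rb, stood at 27.9 ± 14.2 in LPS EVs beside 0.189 ± 0.164 in control EVs (adjusted p = 0.0262). With 6, 0 and 2 counts in control EVs, Jak2 too entered the test through its LPS counts alone and could only come out higher. As for the members, no other list gene was called with IL-10 or TGF-β in EVs.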

How the data were processed

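Total RNA of BV2 cells and of their EVs was made into cDNA with SMART-Seq v4 and Nextera XT and 18 PCR cycles, per the labels' protocols. Without molecular identifiers, reads are not independent molecules. The 6 deposited tables hold raw counts per gene, and the submitters' processing notes name DESeq2; the aligner, genome build and strand setting are not given in sources used here. No listed gene totals under 240 counts. Control columns repeated between tables were identical and entered once, giving 24 libraries, with 0 columns left unmapped. Column names give the group and a number, but not which sample of it.

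Tests used edgeR 4.0.16 (TMM, filterByExpr, robust quasi-likelihood fit, Benjamini-Hochberg over all genes tested, threshold 0.05), tested on simulated data. Each SE was derived from the test, as the size of the log2 change divided by the square root of its F statistic. Treatments were compared in the 6 libraries concerned, treatments with each other in the 12 cell libraries, and compartments by an interaction. Lengths were merged exons in GENCODE M21. Groups at 0 were given a floor of 3 counts per library. The members and lists were chosen with earlier results of these data known. Named were all members, per list and treatment up to 4 genes past the threshold in cells and 2 in EVs, by adjusted p with a mean of at least 50 counts, from which the text takes examples, and the 3 genes most like a member. Alternatives were DESeq2 1.42.0, RLE scaling, other filters, other sets of libraries, each library left out, and, chosen after seeing the data, library totals for the treatment comparisons and the column numbers as a block. Some list genes that the rule includes are counted but not reported here by name. The recipient cells described in the series text were not analysed here.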

Additional observations from a re-analysis of the deposited data

Results flagged for a closer look

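In 3 cases a treatment's effect differed between EVs and cells by the interaction test of edgeR. The LPS effect on Csf1r gave a difference in log2 fold change of -1.97 (adjusted p = 0.00993), as the receptor rose with LPS in cells while every LPS EV library lay below every control EV library. The fall in LPS EVs did not itself pass (edgeR adjusted p = 0.238), and 32% of all genes tested there had no overlap. The TGF-β effect on Csf1r gave a difference of -2.66 (adjusted p = 0.0443), again with a rise in cells and lower values in EVs. That call was lost under 8 of its 16 alternatives (adjusted p from 0.0537 to 0.199). The fall in TGF-β EVs did not itself pass (edgeR adjusted p = 0.999), and 16.7% of all genes tested there had no overlap. The LPS effect on Osmr gave a fitted difference of 14.49 (adjusted p = 0.00604), a value that depends on the prior count, since Osmr had no count in control EVs and at most 3 counts in any cell library. Osmr entered this test through its LPS EV counts alone and could hardly come out lower. Of the genes with no count in LPS cells, 98.5% were read in all 3 LPS EV libraries, and the part of this in the Osmr value was not tested.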

How the results depend on the processing

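Of 1486 values of single members under alternatives, 1364 kept their direction and side of the threshold, 62 lost a call, 25 gained one and 35 changed sign, none of these 35 from a called value. Of the 35, 2 passed the threshold and are not among the 25, both of Csf3r without control EV library 1. In cells, no call with LPS (77 values) or TGF-β (65) was lost, and with IL-10 7 of 52 were, all of Csf3r.

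The number of members called moved beyond 1.5 times as follows. For LPS against control EVs, 3 became 0 with a mean of at least 50 counts, where Il6 was not tested, and with all 12 EV libraries, and it was 0 to 4 with a library left out. For TGF-β EVs it became 1 by DESeq2. For the TGF-β interaction it became 0 with RLE scaling, 3 by DESeq2, and 0 to 3 with a library left out. For TGF-β EVs against cells it became 4 by DESeq2, 1 with RLE scaling, no filter or library totals, and 1 to 4 with a library left out. For controls it was 0 to 4 with a library left out, and for IL-10 EVs against cells 0 to 3. The share of all genes called moved likewise: by DESeq2 it was 24.6%, 6.45% and 7.41% for the LPS, IL-10 and TGF-β interactions, 0.86% and 1.24% for IL-10 and TGF-β EVs, and 24.5%, 31.3% and 30.6% for EVs against cells in control, IL-10 and TGF-β groups.

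Signs changed on library totals for Csf2ra with IL-10 in cells (-0.08), and for Il6st with LPS in EVs (0.20), with IL-10 in EVs (-0.08) and in LPS EVs against cells (0.15). With 1 library left out, log2 differences of members not called with all libraries ranged across 0. In cells this was so for Csf2ra with LPS (-0.08 to 0.05) and Csf2rb with IL-10 (-0.05 to 0.01). In EVs with LPS it was so for Csf2ra (-0.68 to 0.94), Csf3r (-1.30 to 8.43, called without control library 1, adjusted p = 0.0331) and Il6st (-0.83 to 1.81), with IL-10 for Csf2rb (-0.01 to 0.49) and Il6st (-0.53 to 2.04), and with TGF-β for Csf3r (-2.55 to 7.84) and Il6st (-6.51 to 0.04). For the LPS interaction it was so for Csf2ra (-0.84 to 0.81) and Csf3r (-1.71 to 9.95, called without control EV library 1, adjusted p = 0.00198), for IL-10 for Csf2rb (-0.02 to 0.57) and Il6st (-1.32 to 1.34), and for TGF-β for Csf3r (-3.45 to 8.64) and Il6st (-5.67 to 0.76). For EVs against cells it was so for Csf3r in controls (-11.29 to 0.32), Il6st with LPS (-0.81 to 0.21) and Csf2rb with IL-10 (-0.56 to 0.04). Fitted values beyond 7 in size come from groups left at 0 and depend on the prior count. The cause was not tested.

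The numbers 1 to 3 in the column names were not shown to pair libraries. Same-numbered libraries' deviations from their group means correlated from -0.23 to 0.37 over the 13 pairs of groups compared, in no pair of groups above 0.1 for all 3 numbers, and in none did every library correlate best with its own number. The largest value came from LPS and TGF-β cells, at 0.37, 0.23 and 0.08, where 4 libraries correlated best with their own number. A fit with the number as a replicate block, chosen after seeing the data, left the members called with LPS and TGF-β in cells at 6 and 5, and those in the direct contrasts of treated cells at 6, 6 and 5. With IL-10 in cells 4 became 3 (Csf3r, adjusted p = 0.0676). Under the block the members called became 0 for LPS EVs (from 3), the TGF-β interaction (from 1) and IL-10 EVs against cells (from 2), and 1 for TGF-β EVs against cells (from 2), while the LPS interaction stayed at 2 and LPS EVs against cells at 7. The share of all genes called under the block became 0% for LPS EVs (from 14.2%) and for control EVs against cells (from 10.7%), 0.00874% for IL-10 EVs against cells (from 17.7%), 3.05% for TGF-β EVs against cells (from 18.4%), and 0.0168% and 0.00837% for the IL-10 and TGF-β interactions (from 0.285% and 0.31%). With the block, signs of uncalled members changed for Csf2ra with LPS in cells (0.00) and in EVs (0.22), Il6st with LPS in EVs (0.58), and Csf3r with LPS (6.13) and TGF-β (5.80) in EVs and for the LPS interaction (0.28).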
